A study of Mus musculus with 6 samples.

Results

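The collagen chains were examined in whole hearts of mouse embryos at embryonic day 13.5. They were taken as every gene of the count table whose symbol has the form Col, a type number, a and a chain number, which gave 44 of the 45792 genes. By the structures their proteins form, 8 chains were grouped as fibrillar, 8 as basement membrane, 7 as cartilage-type (types II, IX, X and XI) and 21 as other. In the other group, type VI forms beaded filaments, type VIII networks and type VII anchoring fibrils, and the rest are fibril-associated, transmembrane or unclassified.

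The hearts came from 3 embryos labelled wild-type, called control here, and 3 labelled Tie2Cre INO80 flox/flox, called mutant. Tie2Cre expresses Cre recombinase in endothelial cells, the endocardium and their descendants, so the floxed Ino80 gene, which encodes the ATPase of the INO80 chromatin remodelling complex, was to be deleted there and not in heart muscle. The labels give C57BL/6 as the strain of all 6 hearts, whereas the study's methods describe transgenic mice on mixed backgrounds and elsewhere count every other genotype as control. In these bulk samples, fewer cells of a type cannot be told apart from less RNA per cell.

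Collagens are the main structural proteins of the extracellular matrix. Their chains wind around each other in groups of 3, and the winding needs a glycine at 1 of every 3 residues, because only that residue is small enough to face the inside of the helix. Fibrillar collagens assemble into cables that bear tension, type IV forms the sheet under endothelium and around muscle cells, and types II, IX and XI build the thin fibrils of cartilage. In the embryonic heart, collagens lie in the cushions that become valves, in the epicardium, around vessels and between muscle cells, and the genes of types I and II are also used in the developing valves.

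The glycine repeat shows in the genes themselves. In the longest GENCODE vM21 coding sequence of each gene, the longest run with GGN, the glycine codon, at 1 of every 3 codons was between 216 and 344 glycines in the 8 fibrillar chains, with a median of 338. It was between 30 and 66 in the 8 basement membrane chains, whose repeat is broken by short gaps, and between 61 and 339 in the 7 cartilage-type chains, with a median of 113. Fibrillar genes also hold between 21 and 33 coding exons of exactly 54 bases, each worth 6 repeats, against between 1 and 3 in basement membrane genes. The first such exon of 4 chains described below is shown, with the GGN codon that opens each repeat in capitals (GGN codons at other places are in lower case), read 5′ to 3′ on the coding strand of GRCm38. They come from the coding exons of Col1a1 (coding exon 8 of 51, chr11:94939904-94939957, plus strand), Col5a2 (coding exon 6 of 54, chr1:45434892-45434945, minus strand), Col2a1 (coding exon 6 of 54, chr15:97998545-97998598, minus strand) and Col11a1 (coding exon 15 of 67, chr3:114108281-114108334, plus strand).
Col1a1: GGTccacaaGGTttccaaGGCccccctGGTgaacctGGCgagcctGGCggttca
Col5a2: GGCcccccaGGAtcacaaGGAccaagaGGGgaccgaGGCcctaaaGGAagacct
Col2a1: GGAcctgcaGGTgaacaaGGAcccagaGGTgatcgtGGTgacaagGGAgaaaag
Col11a1: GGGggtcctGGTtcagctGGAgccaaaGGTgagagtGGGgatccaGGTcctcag
Types II and XI thus carry the same long repeat and exon size as types I and V, although they are grouped here by their place in cartilage.

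Between 28948836 and 89675692 counts were available per heart, and between 129935 and 525551 of them fell on collagen chains. Levels are given as counts per M counts after scaling of the libraries by TMM (CPM), and levels of different chains are compared per kb of exon. The length is that of all annotated exons of a gene merged. Ranks and the size of ratios between chains therefore depend on the annotation. Ino80 itself had a level of 30.2, 31.6 and 32.7 CPM in control and of 36.5, 33.7 and 31.8 CPM in mutant hearts, with overlap (log2 fold change 0.11, SE 0.08, adjusted p = 0.47 from edgeR). Its counts, taken over all exons and all cells, overlapped between the genotypes, and control and mutant stand for the labels. In endothelial cells isolated from hearts of the mutant genotype, the paper reports that Ino80 mRNA could not be detected by quantitative PCR. By its methods, those cells were sorted from other hearts, of a later embryonic stage than the hearts sequenced here.

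Collagen chains together took between 0.442% and 0.643% of the scaled counts, and the total did not separate the groups. Their summed level was 5110 ± 1140 CPM (SD, n = 3) in control and 5090 ± 544 CPM (SD, n = 3) in mutant hearts. Per kb, Col4a1 stood first with 108 CPM per kb over the 6 hearts, followed by Col3a1 with 101, Col1a1 with 100, Col4a2 with 63.3 and Col1a2 with 44.4 CPM per kb. The ranges of Col4a1 (94.9 to 145), Col3a1 (86.2 to 138) and Col1a1 (72.9 to 142 CPM per kb) overlapped across hearts, so their order was not separated. Without length correction, the 4 highest chains were Col3a1, Col4a1, Col1a1 and Col1a2. They held between 55.1% and 64% of all collagen counts, and the 8 highest chains held between 81.2% and 84.3%. At the low end were Col19a1 with 0.0118 and Col10a1 with 0.00885 CPM per kb.

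**Figure D1:**
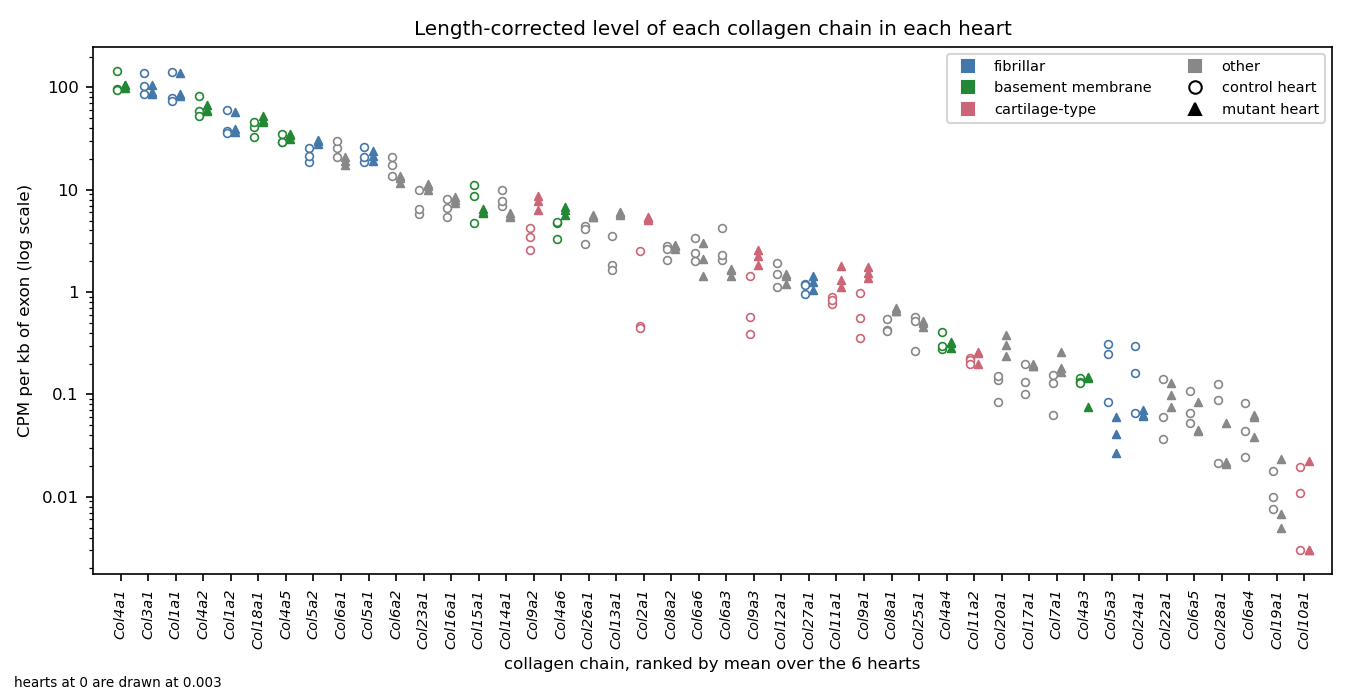
Level of each of the 44 collagen chains in each heart, in CPM per kb of exon on a log axis, ranked by the mean over the 6 hearts. Open circles are control hearts, filled triangles mutant hearts, and colours give the class. The levels run from about 108 CPM per kb for Col4a1 to 0.00885 for Col10a1, and the cartilage-type chains stand in the middle and low part of the range.

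Of the 44 chains, 41 had enough counts to be tested. With edgeR and Benjamini-Hochberg adjustment over the 17125 genes tested, 0 chains passed an adjusted p of 0.05 in either direction, as was true of all genes (0% called). The smallest adjusted p of a chain was 0.069 and that of any gene 0.053. At an unadjusted p under 0.05, 12 chains stood higher in mutant hearts and 6 stood lower, which is 43.9% of the chains against 19.5% of all genes tested (9.48% higher and 9.98% lower). The mutant and control hearts did not overlap in 12 chains on the higher and 5 on the lower side, where the shares of all genes tested were 14.3% and 12.8%. DESeq2 called 9 chains higher (Col4a6, Col5a2, Col9a1, Col9a2, Col9a3, Col11a1, Col13a1, Col20a1 and Col26a1) and 4 chains lower (Col5a3, Col6a1, Col6a3 and Col14a1) at its adjusted p of 0.05, where 2.73% and 3.5% of the genes with such a p were called.

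The main count also rested on 1 control heart. Without control replicate 1, edgeR called 7 chains higher (Col2a1, Col5a2, Col9a1, Col9a2, Col9a3, Col13a1 and Col23a1) and 6 chains lower (Col5a3, Col6a1, Col6a2, Col14a1, Col15a1 and Col24a1) by the same threshold, where 1.85% and 2.49% of all genes tested were called. Without any other heart, 0 chains passed in either direction. In 16 of the 18 chains with an unadjusted p under 0.05, the control heart whose level lay closest to the mean of the mutant hearts was replicate 1, a count made after the values were seen. The same count was not made over all genes tested, so it is not shown to be particular to the collagen chains. The median log2 fold change of the 41 chains was 0.12, beside 0 over all genes tested. It was 1.22 for the cartilage-type, -0.02 for the fibrillar, -0.06 for the basement membrane and 0.15 for the other chains.

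**Figure D2:**
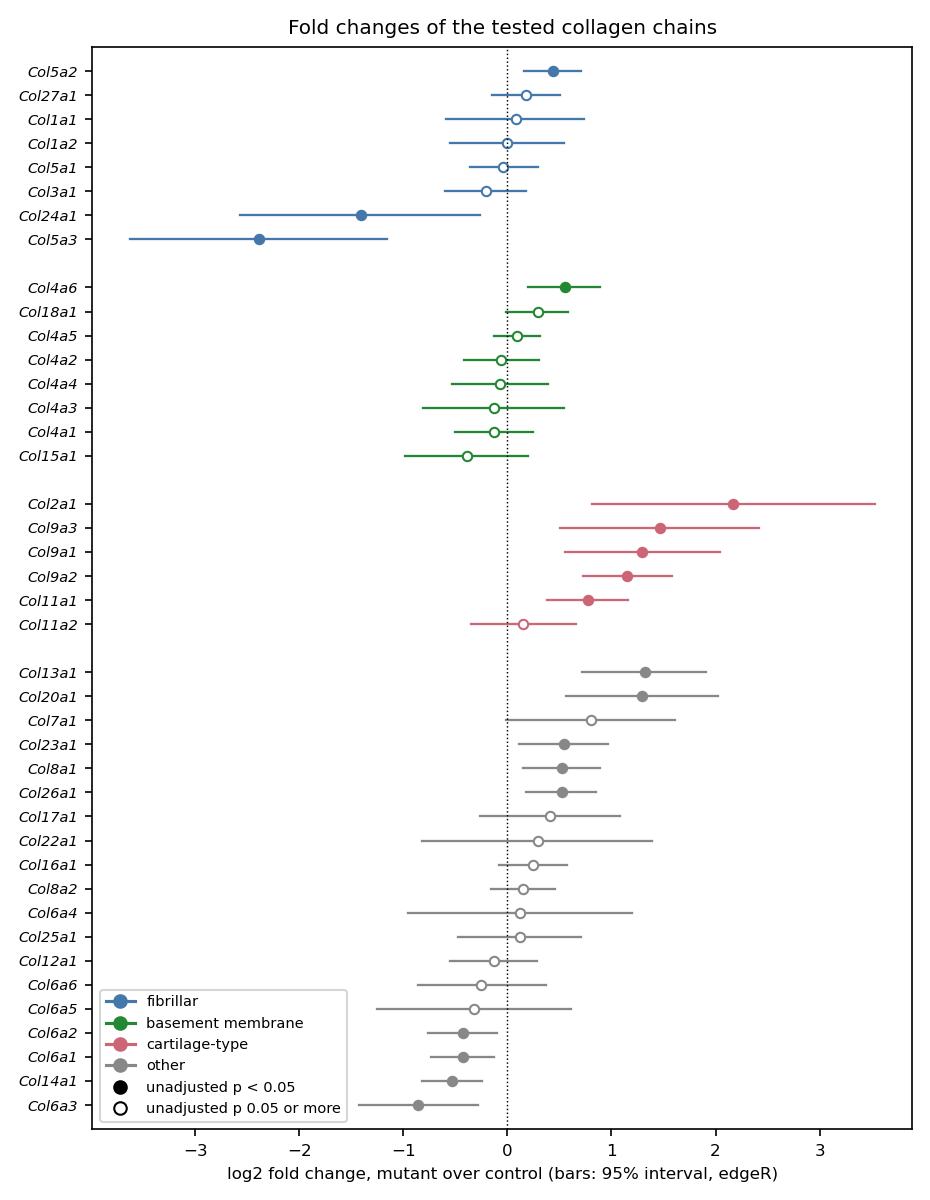
Log2 fold change, mutant over control, of the 41 tested collagen chains by class, with the 95% interval from edgeR; filled points have an unadjusted p under 0.05. All 6 tested cartilage-type chains lie above 0, from 0.15 for Col11a2 to 2.17 for Col2a1, while the most abundant fibrillar and basement membrane chains, Col4a1, Col3a1 and Col1a1, have intervals that include 0, and Col5a2 lies at 0.44.

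The cartilage-type chains were the class with the highest median. All 6 tested members had a positive fold change, 5 of them at an unadjusted p under 0.05, beside 9.48% of all genes tested. Their summed level was 59.7, 28.5 and 30.4 CPM in control and 119, 100 and 105 CPM in mutant hearts. Every mutant heart was thus above every control heart, and control replicate 1 stood apart from the other two control hearts toward the mutant side.

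Col2a1 (ENSMUSG00000022483.14, chromosome 15, 97975602 to 98004695) encodes the chain of type II collagen, the main fibril of cartilage. It stood at 23.3, 4.29 and 4.11 CPM in control and at 49.9, 48.5 and 46.4 CPM in mutant hearts. The mutant hearts were close to each other, and control replicate 1 lay between the groups, several times above the other control hearts. The log2 fold change was 2.17 (SE 0.59, adjusted p = 0.13 from edgeR and 0.081 from DESeq2), and it was 3.52 without control replicate 1 (adjusted p = 6e-05 from edgeR).

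Type IX collagen sits on the surface of type II fibrils and is built from Col9a1, Col9a2 and Col9a3. Col9a2 (ENSMUSG00000028626.5, chromosome 4, 121039385 to 121055322) had the smallest adjusted p of the chains, with 13.1, 8.03 and 10.8 CPM in control and 27, 19.8 and 24.3 CPM in mutant hearts. Its groups lay well apart, with a 2.22-fold difference between them (log2 fold change 1.15, SE 0.19, adjusted p = 0.069 from edgeR and 5e-07 from DESeq2). Col9a1 stood at 4.99, 2.86 and 1.79 CPM in control and 9, 6.93 and 7.83 CPM in mutant hearts (log2 fold change 1.29, SE 0.32, adjusted p = 0.11 from edgeR and 0.0014 from DESeq2). Col9a3 stood at 5.52, 2.18 and 1.51 CPM and at 8.72, 7.03 and 10 CPM (log2 fold change 1.47, SE 0.42, adjusted p = 0.14 from edgeR and 0.0031 from DESeq2), and without control replicate 1 its log2 fold change was 2.22. In all of these genes the highest control heart was replicate 1 and it lay below the lowest mutant heart. Of the exonic bases of Col9a3, 6.07% also lie in exons of Tcfl5 on the opposite strand, and the library kit used does not mark strand.

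Col11a1 and Col11a2 encode chains of type XI collagen, which lies in the core of type II fibrils. Col11a1 (ENSMUSG00000027966.17, chromosome 3, 114030540 to 114220718) stood at 11.3, 9.63 and 10.7 CPM in control and 22.7, 16.7 and 14.4 CPM in mutant hearts. Its control hearts were closer to each other than its mutant hearts, and the groups did not overlap (log2 fold change 0.77, SE 0.17, adjusted p = 0.092 from edgeR and 0.0021 from DESeq2). Col11a2 stood at 1.55, 1.5 and 1.36 CPM and at 1.75, 1.36 and 1.78 CPM, with overlap (log2 fold change 0.15, 95% interval -0.35 to 0.66). Col10a1, the chain of type X collagen that marks hypertrophic cartilage, had between 0 and 3 counts in every heart and was not tested.

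Proportions within the class were compared as ratios, on which no test was run. Per kb, Col2a1 stood at 2.84, 0.614 and 0.527 times Col11a1 in control hearts and at 3.03, 4.01 and 4.45 times in mutant hearts. Col9a1 over Col9a2 was between 0.101 and 0.233 in control and between 0.197 and 0.214 in mutant hearts, with overlap. The ratios within type IX thus overlapped between the groups, and the ratio of Col2a1 to Col11a1 did not. For that ratio, control replicate 1 (2.84) lay close to the lowest mutant heart (3.03) and far from the other control hearts.

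**Figure D3:**
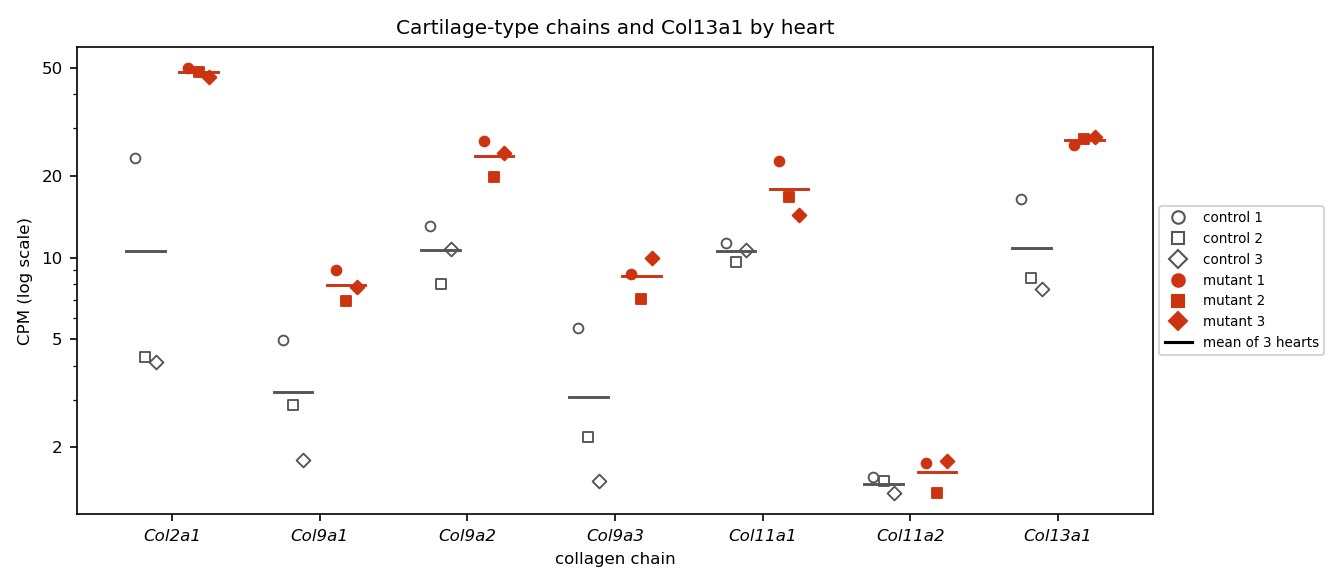
CPM of the 6 tested cartilage-type chains and of Col13a1 in each heart, on a log axis; open symbols are control and filled symbols mutant hearts, the symbol shape gives the replicate number, and the line is the mean of 3 hearts. In every chain except Col11a2 the mutant hearts lie above the control hearts, and control replicate 1 is the highest control heart.

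A list of 8 genes that mark cartilage, none a collagen, was set beside these values. Matn1 had no counts in 4 hearts and at most 0.0263 CPM, Chad and Matn3 stayed under 0.5 CPM, and 5 of the 8 genes averaged under 1 CPM. Acan, the large proteoglycan of cartilage, stood lower in mutant hearts, at 0.683, 1.06 and 1.23 CPM in control and 0.508, 0.329 and 0.342 CPM in mutant hearts (log2 fold change -1.28, SE 0.34, adjusted p = 0.13 from edgeR). Hapln1, a link protein also made in the embryonic heart, followed the pattern of Col2a1, at 36, 12.3 and 12.7 CPM in control and 56.1, 49.1 and 40.5 CPM in mutant hearts (log2 fold change 1.25, SE 0.39, adjusted p = 0.16 from edgeR). Sox9, the transcription factor that switches on Col2a1 in cartilage and is active in valve precursors, stood at 20.3, 15.6 and 14 CPM and at 22.7, 20.9 and 20.9 CPM (log2 fold change 0.37, SE 0.14, adjusted p = 0.2 from edgeR). The list summed to between 30.7 and 59.5 CPM in control and between 66.5 and 82.4 CPM in mutant hearts, with most of the sum from Hapln1 and Sox9, and its part in the collagen values was not tested. Markers of bone summed to at most 0.188 CPM, of airway epithelium to at most 0.447 CPM and of body wall skeletal muscle to at most 0.94 CPM in any heart.

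Of the 8 fibrillar chains, 1 stood higher and 2 stood lower in mutant hearts at an unadjusted p under 0.05, which is 37.5% beside 19.5% of all genes tested. The most abundant fibrillar chains did not differ beyond the spread between hearts. Col1a1 and Col1a2, which together form type I collagen, are the chains of the thickest fibrils. Col1a1 stood at 512, 478 and 932 CPM in control and at 915, 541 and 568 CPM in mutant hearts (log2 fold change 0.08, 95% interval -0.59 to 0.74). Col1a2 stood at 465, 441 and 750 CPM and at 714, 454 and 484 CPM (log2 fold change 0, 95% interval -0.55 to 0.54). Control replicate 3 and mutant replicate 1 were the high hearts for both genes, and the Col1a1 level per kb kept to between 2.05 and 2.43 times that of Col1a2 in all 6 hearts. The merged exons measure 6.56 kb for Col1a1 and 12.4 kb for Col1a2, while their coding sequences have 1453 and 1372 codons. The size of this ratio thus depends on the annotated lengths, and its steadiness across hearts does not. Col3a1, which forms type III fibrils of soft tissue, stood at 847, 1010 and 1350 CPM in control and 1030, 847 and 893 CPM in mutant hearts (log2 fold change -0.21, 95% interval -0.6 to 0.18).

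Type V collagen starts fibrils and limits their width, and it has 3 chains. Col5a2 (ENSMUSG00000026042.14, chromosome 1, 45374321 to 45503282) stood at 248, 179 and 203 CPM in control and 297, 269 and 288 CPM in mutant hearts, without overlap (log2 fold change 0.44, SE 0.12, adjusted p = 0.13 from edgeR and 0.016 from DESeq2). Col5a1 stood at 157, 178 and 224 CPM and at 203, 161 and 182 CPM, with overlap (log2 fold change -0.04, 95% interval -0.36 to 0.29). Col5a3 (ENSMUSG00000004098.7, chromosome 9, 20770050 to 20815067) was the chain with the most negative fold change, with 22, 50 and 68 counts in control and 17, 12 and 12 counts in mutant hearts. These are 0.578, 1.7 and 2.1 CPM against 0.184, 0.282 and 0.41 CPM, so that every mutant heart was below every control heart and control replicate 1 was the lowest control heart. The level was 5.26-fold lower in mutant hearts (log2 fold change -2.39, SE 0.54, adjusted p = 0.093 from edgeR and 0.0015 from DESeq2). Per kb, Col5a1 stood at 0.715, 1.12 and 1.25 times Col5a2 in control hearts and at 0.771, 0.677 and 0.713 times in mutant hearts, and control replicate 1 lay within the mutant range.

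Col24a1, a minor fibrillar chain, had 19, 36 and 73 counts in control and 43, 23 and 14 counts in mutant hearts. It stood at 0.499, 1.23 and 2.25 CPM and at 0.465, 0.541 and 0.479 CPM, with control replicate 1 inside the mutant range (log2 fold change -1.41, SE 0.5, adjusted p = 0.19 from edgeR). The log2 fold change was -0.78 without control replicate 3 (unadjusted p = 0.12) and -1.82 without control replicate 1 (adjusted p = 0.035 from edgeR). Col27a1, the related chain, stood between 12.5 and 18.7 CPM over the 6 hearts, with overlap (log2 fold change 0.18, 95% interval -0.15 to 0.51).

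Among the 8 basement membrane chains, 1 stood higher and 0 stood lower at an unadjusted p under 0.05 (edgeR), which is 12.5% beside 19.5% of all genes tested. DESeq2 called 1 and 0 by its adjusted p, beside 2.73% and 3.5% of the genes with such a p. Col4a1 and Col4a2, the pair found in nearly all basement membranes, stood at the top of the collagens and did not separate the groups. Col4a1 stood at 725, 708 and 1080 CPM in control and 789, 733 and 786 CPM in mutant hearts (log2 fold change -0.13, 95% interval -0.5 to 0.25). Col4a2 stood at 392, 349 and 543 CPM and at 400, 387 and 445 CPM (log2 fold change -0.06, 95% interval -0.42 to 0.3). Control replicate 3 was high for both, and the mutant hearts were closer together than the control hearts. These genes lie head to head on chromosome 8 and share 22 exonic bases, and Col4a1 per kb was between 1.57 and 1.8 times Col4a2 in all hearts.

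Col4a5 and Col4a6 lie head to head on the X chromosome and encode a chain pair of more restricted basement membranes. Col4a6 (ENSMUSG00000031273.14, chromosome X, 141165403 to 141474076) stood at 37.9, 26.1 and 38.5 CPM in control and 54.4, 45 and 50.3 CPM in mutant hearts. The groups did not overlap, with a 1.46-fold difference (log2 fold change 0.55, SE 0.15, adjusted p = 0.13 from edgeR and 0.016 from DESeq2). Col4a5 stood at 197, 198 and 237 CPM and at 230, 209 and 233 CPM, with overlap (log2 fold change 0.09, 95% interval -0.13 to 0.31). Per kb, Col4a6 was 0.162, 0.111 and 0.137 of Col4a5 in control hearts and 0.199, 0.181 and 0.182 in mutant hearts, so this ratio also lay higher in every mutant heart. Col4a3 and Col4a4, chains of the kidney filter, stood under 5 CPM in every heart, with log2 fold changes of -0.13 and -0.07.

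Col18a1 and Col15a1 bridge basement membranes to the matrix beyond, and Col18a1 is the source of endostatin. Col18a1 stood at 289, 228 and 322 CPM in control and 339, 321 and 365 CPM in mutant hearts, with a slight overlap (log2 fold change 0.29, 95% interval -0.01 to 0.58). Col15a1 stood at 29.9, 70.1 and 54.6 CPM and at 37.8, 38.5 and 41.4 CPM, with control replicate 1 below all mutant hearts and the other control hearts above them. It had a log2 fold change of -0.39 (adjusted p = 0.42 from edgeR), which became -0.67 without control replicate 1 (adjusted p = 0.027 from edgeR). Endothelial marker genes, which mark the cells in which Ino80 was to be deleted, summed to between 687 and 871 CPM in control and between 779 and 821 CPM in mutant hearts. Of the 6 genes, 0 had an unadjusted p under 0.05 (edgeR), beside 19.5% of all genes tested.

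Type VI collagen forms beaded filaments around cells. In mutant hearts 3 of its 6 chains were lower at an unadjusted p under 0.05, beside 9.98% of all genes tested. Col6a1, Col6a2 and Col6a3 make the common form of the protein. Col6a1 stood at 91.6, 113 and 132 CPM in control and 90.9, 75.8 and 83.2 CPM in mutant hearts (log2 fold change -0.43, SE 0.13, adjusted p = 0.16 from edgeR and 0.042 from DESeq2). Col6a2 stood at 113, 145 and 173 CPM and at 109, 97.8 and 113 CPM (log2 fold change -0.43, SE 0.14, adjusted p = 0.17 from edgeR and 0.054 from DESeq2). Control replicate 1 was level with the highest mutant heart for both genes, and the other control hearts stood clearly above. Col6a3 (ENSMUSG00000048126.14, chromosome 1, 90765923 to 90843971) stood at 24.8, 27.6 and 50.6 CPM in control and 20.1, 17.1 and 19.6 CPM in mutant hearts (log2 fold change -0.86, SE 0.25, adjusted p = 0.14 from edgeR and 0.0067 from DESeq2). Control replicate 3 was well above the other hearts, and without it the log2 fold change of Col6a3 was -0.47.

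The ratio of the neighbouring genes Col6a1 and Col6a2 on chromosome 10 was steady, at 1.49 ± 0.0426 per kb (SD, n = 3) in control and 1.49 ± 0.0912 per kb (SD, n = 3) in mutant hearts. Its size depends on the merged exon lengths, 4.38 kb for Col6a1 and 8.33 kb for Col6a2. Col6a3 per kb was 0.0992, 0.0892 and 0.14 of Col6a1 in control and 0.0811, 0.0826 and 0.0863 of it in mutant hearts, so the ratio was lower in every mutant heart. Col6a4, Col6a5 and Col6a6, chains thought to take the place of Col6a3, did not separate the groups. Col6a6 was the most abundant of them, at 22.3, 18.6 and 30.9 CPM in control and 27.5, 19.2 and 13.3 CPM in mutant hearts (log2 fold change -0.25, 95% interval -0.86 to 0.37).

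Fibril-associated chains lie on the surface of fibrils, and 1 was higher and 1 lower of the 5 tested. Col14a1 (ENSMUSG00000022371.13, chromosome 15, 55307750 to 55520803) stood at 49.1, 54 and 69 CPM in control and 41.9, 38.9 and 38 CPM in mutant hearts, without overlap (log2 fold change -0.53, SE 0.13, adjusted p = 0.1 from edgeR and 0.0054 from DESeq2). Col20a1 had 27, 23 and 14 counts in control and 113, 67 and 58 counts in mutant hearts. These are 0.709, 0.783 and 0.432 CPM against 1.22, 1.57 and 1.98 CPM, without overlap and at a low level (log2 fold change 1.29, SE 0.32, adjusted p = 0.11 from edgeR and 0.025 from DESeq2). Col12a1 stood between 17.1 and 29.1 CPM and Col16a1 between 36.2 and 57.2 CPM over the 6 hearts, both with overlap and with log2 fold changes of -0.13 and 0.25. Col22a1 averaged under 1 CPM in either group, and Col19a1 had between 1 and 15 counts a heart and was not tested.

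**Figure D4:**
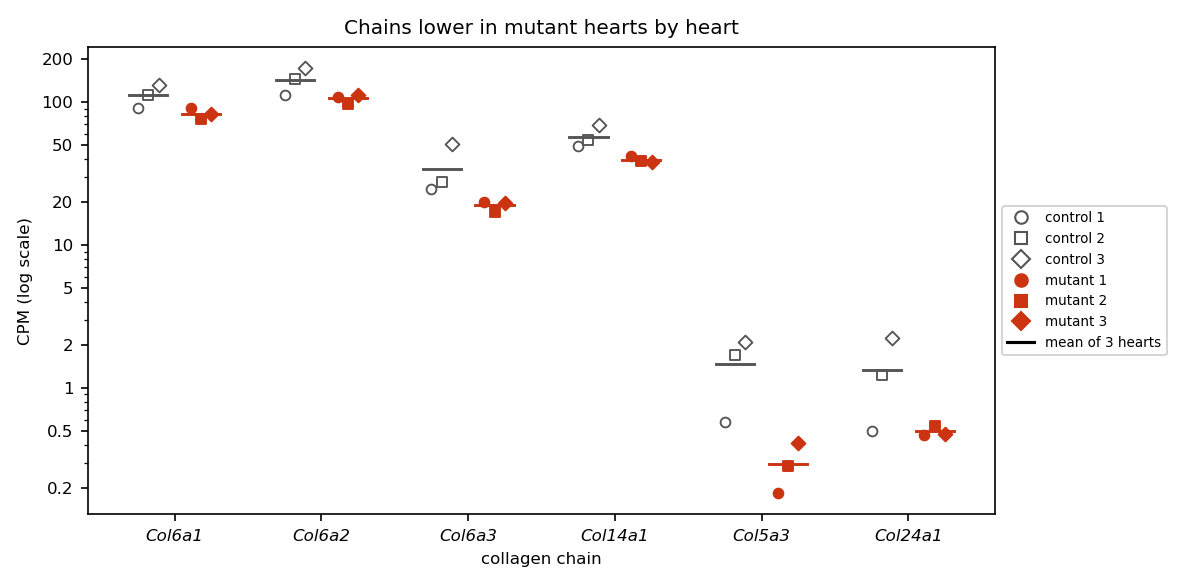
CPM of the 6 chains that were lower in mutant hearts at an unadjusted p under 0.05, in each heart on a log axis; open symbols are control and filled symbols mutant hearts, the symbol shape gives the replicate number, and the line is the mean of 3 hearts. Control replicate 1 is the lowest control heart in all 6 chains and lies within the mutant range for Col24a1.

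Fibroblast and valve mesenchyme markers, other than collagens, are given beside these lower chains. Their sum over 8 genes was between 863 and 951 CPM in control and between 699 and 737 CPM in mutant hearts, without overlap. Most of it came from Postn, with a mean of 554 CPM in control and 410 CPM in mutant hearts. The means of the whole sum were 904 and 713 CPM. In this list, 4 genes were lower (Postn, Dcn, Lum and Prrx1) and 1 higher (Twist1) at an unadjusted p under 0.05. Of all genes tested, 9.98% were lower and 9.48% higher at this threshold, shares that also stand beside the lists that follow. Pdgfra and Tcf21, which define fibroblasts, had log2 fold changes of 0.29 and 0.23 (adjusted p = 0.31 and 0.35 from edgeR). Of the pericyte genes, Rgs5 stood at 44.2, 100 and 101 CPM in control and at 12.8, 11 and 16.1 CPM in mutant hearts (log2 fold change -2.62, SE 0.31, adjusted p = 0.065 from edgeR). Kcnj8 stood at 14.9, 22.6 and 26.2 CPM and at 11.3, 12.6 and 14.4 CPM, without overlap (log2 fold change -0.74, SE 0.2, adjusted p = 0.13 from edgeR). Pdgfrb and Notch3 overlapped between the groups, with log2 fold changes of -0.16 and -0.26 (adjusted p = 0.46 and 0.42 from edgeR). The whole smooth muscle and pericyte list had 1 gene higher (Cnn1) and 3 genes lower (Myh11, Rgs5 and Kcnj8) of 8 at an unadjusted p under 0.05. It summed to between 1390 and 1650 CPM in control and between 1300 and 1510 CPM in mutant hearts, with most of the sum from Acta2. Epicardial markers summed to between 138 and 142 CPM in control and between 148 and 169 CPM in mutant hearts, without overlap. The difference in this sum came mainly from Upk3b, with a mean of 42.2 CPM in control and 62.7 CPM in mutant hearts. At an unadjusted p under 0.05, 1 gene was higher (Upk3b, log2 fold change 0.57, adjusted p = 0.083 from edgeR) and 1 gene lower (Upk1b, log2 fold change -0.28, adjusted p = 0.25 from edgeR) of 5. Wt1, Tbx18 and Aldh1a2 had log2 fold changes of 0, -0.1 and 0.21, with overlap. The part of these cells in the collagen values was not tested.

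All 4 transmembrane chains had positive fold changes, as did 8509 of all 17125 genes tested. At an unadjusted p under 0.05, 2 of the 4 chains were higher, beside 9.48% of all genes tested. Col13a1 (ENSMUSG00000058806.12, chromosome 10, 61838236 to 61979108), whose protein sits at sites where cells attach to matrix, stood at 16.4, 8.44 and 7.65 CPM in control and 26.1, 27.4 and 27.9 CPM in mutant hearts. The mutant hearts were nearly level, and the fold change was 2.49 (log2 fold change 1.32, SE 0.26, adjusted p = 0.083 from edgeR and 8.6e-06 from DESeq2). Col23a1 stood at 56.9, 32.9 and 37 CPM in control and 62.3, 65.3 and 56.8 CPM in mutant hearts, so that control replicate 1 reached the lowest mutant heart (log2 fold change 0.54, SE 0.19, adjusted p = 0.19 from edgeR). Without control replicate 1 it had a log2 fold change of 0.82 (adjusted p = 0.01 from edgeR). Col25a1 and Col17a1 overlapped between the groups, with log2 fold changes of 0.12 and 0.41.

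Of the remaining chains, Col26a1 and Col8a1 were higher at an unadjusted p under 0.05. Col26a1 stood at 36.5, 33.8 and 23.9 CPM in control and 44.2, 44 and 46.6 CPM in mutant hearts, without overlap (log2 fold change 0.52, SE 0.15, adjusted p = 0.14 from edgeR and 0.02 from DESeq2). Col8a1, a network chain found under endothelium, stood at 4.31, 3.37 and 3.3 CPM and at 5.48, 5.15 and 5.13 CPM, without overlap (log2 fold change 0.52, SE 0.16, adjusted p = 0.16 from edgeR and 0.092 from DESeq2). Its partner Col8a2 stood at 12.8, 9.23 and 11.9 CPM and at 12.8, 13 and 11.8 CPM, with overlap (log2 fold change 0.15, 95% interval -0.16 to 0.46). Col7a1, the anchoring fibril of skin, stood at 1.34, 0.647 and 1.61 CPM in control and 2.69, 1.69 and 1.85 CPM in mutant hearts (log2 fold change 0.8, 95% interval -0.01 to 1.61). Col28a1 had between 3 and 18 counts a heart and was not tested.

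Promoters were compared because chains were found on both sides. RefSeq promoter windows of GRCm38.p6 were held for 35 of the 44 chains, and the 250 bases before the start were searched on both strands. The GC box GGGCGG was found in 21 of the 35 chains, beside 32.7% of all 32851 windows, and in 5 of the 8 higher and 2 of the 5 lower chains with a window. The CCAAT box was found in 13 of the 35 chains, beside 33.8% of all windows, and in 2 of the 8 higher and 1 of the 5 lower chains. TATAAA was found in 5 chains, beside 12.4%, and in 1 of the 8 higher and 0 of the 5 lower chains. A chain was counted if any of its windows matched (38 windows for 35 chains), whereas the background is a share of single windows. The 150 bases before the start are shown for Col11a1, a higher chain (chr3:114030390-114030539, plus strand), and for Col5a3, a lower one (chr9:20815068-20815217, minus strand), with the CCAAT and GC boxes of either strand in capitals.
Col11a1: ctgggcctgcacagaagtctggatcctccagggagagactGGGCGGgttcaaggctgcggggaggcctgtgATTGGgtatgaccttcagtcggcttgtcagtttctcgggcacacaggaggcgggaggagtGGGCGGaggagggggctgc
Col5a3: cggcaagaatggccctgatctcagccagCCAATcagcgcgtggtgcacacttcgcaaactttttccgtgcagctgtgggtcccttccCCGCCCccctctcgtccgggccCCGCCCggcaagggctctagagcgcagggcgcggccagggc
Both windows hold 1 CCAAT box and 2 GC boxes, and the chains lay on opposite sides of 0. The same 150 bases before Col13a1, a higher chain, and Col6a3, a lower one, hold 0 matches to either box. A match of these letters is a description of the sequence only.

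Genes that modify, secrete, trim, crosslink, bind or break down collagen were given as a list of 62, of which 56 were tested. At an adjusted p of 0.05 with edgeR 0 passed. At an unadjusted p under 0.05, 11 stood higher and 3 stood lower, together 25% of the list, beside 19.5% of all genes tested (9.48% higher and 9.98% lower). DESeq2 called 4 genes higher and 2 genes lower by its adjusted p, where 2.73% and 3.5% of the genes with such a p were called. The median log2 fold change of the list was 0.13, beside 0 over all genes tested.

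Of the 18 genes that modify and fold the chain inside the cell, 5 stood higher and 1 stood lower at an unadjusted p under 0.05. This is 33.3% of them, beside 19.5% of all genes tested. Colgalt2, which adds galactose to hydroxylysine, stood at 7.09, 5.86 and 5.34 CPM in control and 9.74, 9.24 and 10.3 CPM in mutant hearts (log2 fold change 0.68, SE 0.14, adjusted p = 0.083 from edgeR and 0.0025 from DESeq2). P3h2, a prolyl 3-hydroxylase, stood at 20.7, 12.1 and 19 CPM and at 33.1, 24.3 and 31.2 CPM (log2 fold change 0.77, SE 0.2, adjusted p = 0.12 from edgeR and 0.0043 from DESeq2). In both, every mutant heart lay above every control heart. The collagen chaperone Fkbp10 (log2 fold change 0.36), the hydroxylase P3h1 (0.39) and the channel Tmem38b (0.32) were the others on the higher side, and the lysyl hydroxylase Plod1 (-0.29) was on the lower side. Serpinh1, the chaperone HSP47 that binds the wound chains, stood at 751, 651 and 782 CPM and at 822, 771 and 925 CPM, with overlap (log2 fold change 0.2, SE 0.11, adjusted p = 0.33 from edgeR).

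Of the 7 partners of the fibril, Dcn and Lum, small proteoglycans that coat it, were lower at an unadjusted p under 0.05, and Fn1 was higher. Together these are 42.9% of the list, beside 19.5% of all genes tested. Fmod, Bgn, Sparc and Tnxb overlapped between the groups, with log2 fold changes of 0.43, 0.01, 0.1 and 0.1 (adjusted p = 0.33, 0.97, 0.6 and 0.89 from edgeR). Lum stood at 73.7, 69.7 and 61.8 CPM in control and 51.1, 51.5 and 50.7 CPM in mutant hearts (log2 fold change -0.42, SE 0.08, adjusted p = 0.083 from edgeR and 0.0018 from DESeq2), and Dcn had a log2 fold change of -0.46 (adjusted p = 0.091 from edgeR and 0.0035 from DESeq2). Fn1, the fibronectin on which fibrils are laid down, stood at 385, 221 and 453 CPM and at 629, 469 and 475 CPM (log2 fold change 0.57, SE 0.24, adjusted p = 0.25 from edgeR). Dcn and Lum, but not Fmod or Bgn, thus stood on the same side as Col14a1, Col6a1, Col6a2 and Col6a3. Dcn and Lum are also members of the fibroblast list above.

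Among the genes of collagen breakdown and binding, Reck, an inhibitor of matrix proteases, stood at 19.7, 15.8 and 15.6 CPM in control and 25.8, 23.2 and 22.7 CPM in mutant hearts (log2 fold change 0.49, SE 0.11, adjusted p = 0.1 from edgeR and 0.012 from DESeq2). Mrc2, which takes up collagen fragments, and the membrane protease Mmp14 had log2 fold changes of 0.46 and 0.26 (adjusted p = 0.19 and 0.24 from edgeR). Bmp1, which removes the propeptides of fibrillar chains, had a log2 fold change of 0.22 and the collagen receptor Ddr1 of 0.24 (adjusted p = 0.18 and 0.19 from edgeR). The receptor Ddr2 stood at 10.4, 15.9 and 11.4 CPM and at 10.6, 9.8 and 9.81 CPM, with overlap (log2 fold change -0.32, adjusted p = 0.31 from edgeR). Of the crosslinking enzymes 0 of 5 had an unadjusted p under 0.05 (edgeR), beside 19.5% of all genes tested. Lox stood at 33.3, 33.1 and 53.9 CPM and at 36.2, 32.7 and 29.6 CPM, its high heart being control replicate 3 as for type I collagen.

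**Figure D5:**
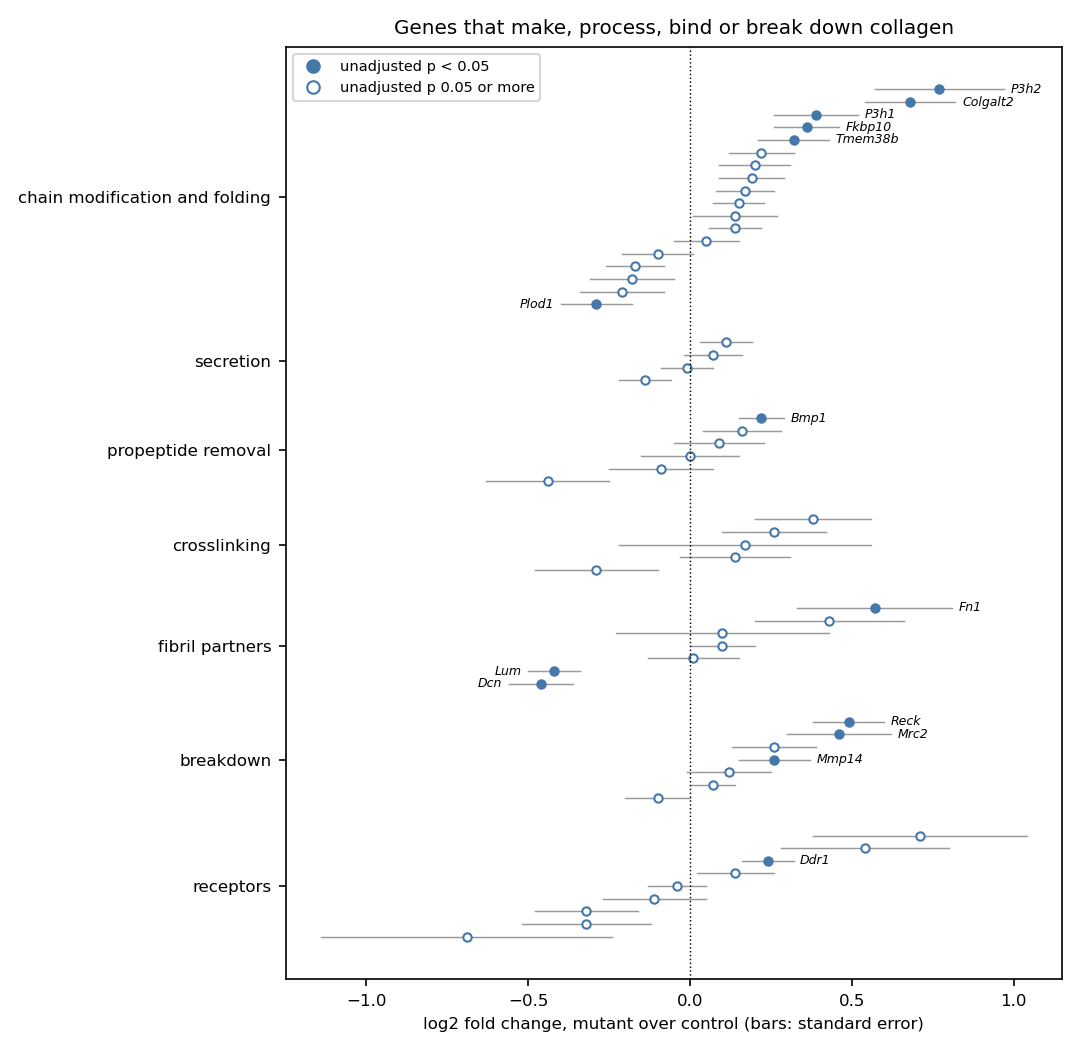
Log2 fold change, mutant over control, with its standard error from edgeR for the 56 tested genes that make, process, bind or break down collagen, by role; filled, named points have an unadjusted p under 0.05. The higher genes lie mainly among chain modification and breakdown, and the 3 lower ones are Plod1, Lum and Dcn.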

How the data were processed

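Whole-heart RNA of 3 control and 3 mutant embryos was sequenced as 76 bp paired-end reads from NEBNext Ultra libraries. The authors mapped reads to GRCm38 with STAR (2.4.2a in the submitters' processing notes) and the GENCODE vM6 annotation, counted them with summarizeOverlaps and deposited raw counts per gene. Whether strand was used, and how reads on overlapping genes were counted, is not given in the sources used here. A second deposited table pairs gene identifiers with symbols, which were used, and holds the authors' DESeq2 comparison (fold changes and p-values), which was not.

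The counts were fitted with edgeR 4.0.16 (R 4.3.3), using filterByExpr (minimum count 10, minimum total 15), TMM scaling and a quasi-likelihood test with genotype as the only term, with Benjamini-Hochberg adjustment over all genes tested. DESeq2 1.42.0, RLE size factors, other count filters, the replicate number as a block and leaving out each heart were alternatives. Intervals are 95% intervals of the fit. Coordinates and exonic lengths are those of GENCODE vM21 on GRCm38, in which 45229 gene identifiers have a match, and promoter windows are from RefSeq. The fits were tested on simulated counts. The members and lists were chosen with earlier results of these data known. Chains were named with values by heart where their mean was at least 50 CPM, their unadjusted p was under 0.05, their groups did not overlap at a mean of at least 1 CPM, or a partner chain was so described. Of the collagen-processing genes, those with an unadjusted p under 0.05 (at most 8 in each direction) and Serpinh1, Lox and Ddr2 were to be named. Ddr1, Fn1, Fmod, Bgn, Sparc, Tnxb, Mmp14, Col15a1 and the marker genes described singly were added after their values were seen. The hearts are separate embryos by the labels. Every pair of libraries differed by more than counting noise. Counts ranged from 28948836 to 89675692 a heart, and the biological coefficient of variation was 0.153.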

Additional observations from a re-analysis of the deposited data

How the results depend on the processing

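At an adjusted p under 0.05, the number of chains higher was 0 with RLE size factors and with at least 10 counts in every heart, 9 with DESeq2, 9 when every gene with 1 or more counts was kept, and between 0 and 7 when each heart was left out. The number lower was 4 with DESeq2, 3 when every gene with 1 or more counts was kept, and between 0 and 6 when each heart was left out. The counts of chains at an unadjusted p under 0.05 stayed within 1.5 times the main count in every setting run. Same-numbered hearts did not deviate together (correlations 0.02, -0.08 and -0.07). With 3 hearts in a group, these correlations cannot decide whether hearts shared a litter or day. The labels do not say what the replicate numbers mark, and the paper states that mutants were always analysed with littermate controls. With the replicate block, 1 chain passed on the higher and 0 on the lower side. For this block and for the filter that kept every gene with 1 or more counts, the share of all genes called is not given here. The chain counts of these settings thus have no background beside them. For the collagen-processing genes at an unadjusted p under 0.05, leaving out each heart gave between 7 and 14 higher (7 without mutant replicate 2 and without mutant replicate 3) and between 3 and 8 lower (8 without control replicate 2). The number lower was 6 with DESeq2 and 8 under that wider filter, settings that also take in genes left out of the main fit. Among the 56 genes of the main fit, DESeq2 gave 4 lower. The cause of these shifts was not tested otherwise. Of 297 values of the 27 named chains under the alternatives, 13 changed sign, all in chains near 0. The log2 fold change of Col1a1 ranged from -0.21 to 0.45, and that of Col1a2 from -0.23 to 0.28, when each heart was left out. Col1a2 was at 0.01 under the wider filter, 0 with at least 10 counts in every heart and 0.01 with the replicate block. When each heart was left out, Col4a1 ranged from -0.23 to 0.1, Col4a2 from -0.19 to 0.15 and Col5a1 from -0.14 to 0.12. Depth limits mainly the chains under 1 CPM, such as Col5a3, whose mutant hearts held 12 to 17 counts each.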
